A study of Mus musculus with 2 samples.

Results

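The genes described are 9 transcription factors of the myeloid lineage, Cebpa, Cebpb, Cebpd, Cebpe, Spi1, Gfi1, Irf8, Klf4 and Runx1, out of 32285 genes in the count matrices. They were chosen by name as known myeloid factors, with earlier results of these data in view, and all 9 had UMIs (unique molecular identifiers, each counting 1 captured transcript) in both libraries. The libraries are 1 control library and 1 library labelled Utx-deleted, each made from CD45.2+ Kit+ cells of mouse bone marrow, 10 weeks post-transplantation. Utx is another name of Kdm6a, a histone H3 lysine 27 demethylase. The labels name no strain, promoter, Cre driver, animal number or hashtag meaning, so what limits the deletion as a model is not given in the sources used here. The assay was CITE-seq, in which single cells in droplets give UMIs from transcript 3′ ends and from DNA-tagged antibodies.

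Spi1 encodes PU.1 and Runx1 a core-binding factor, both needed to set up the myeloid programme, and Cebpa drives the step from multipotent to granulocyte-monocyte progenitors. From there the choice is commonly described as a contest: Irf8 and its downstream factor Klf4 favour monocytes and dendritic cells, whereas Gfi1, a repressor, and Cebpe favour neutrophils. Cebpb takes over granulocyte production under stress, and Cebpd is induced as granulocytes mature.

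Levels are in CPM, the UMIs of a gene per 1000000 gene UMIs of the same cells. Kdm6a itself was at 110 CPM in control cells against 103 in the library labelled Utx-deleted, and 3′ counting cannot show whether an internal exon is missing, so this does not check the label. After filtering, 7011 control cells and 7206 cells of the other library remained, with medians of 12367 and 11817 UMIs per cell. With 1 library per group there is no replicate library and no test. Intervals are 95% intervals, exact for levels, ratios and shares and combined from the exact bounds of both shares for a difference of shares, and cover counting error only, and the 2 antibody hashtags within each library serve as the only view of spread, because nothing says that they mark animals. Where 0 cells of a group had a UMI, the limit given is 3 divided by the number of cells. This lies below the exact upper bound, at 1.62% against 1.97% for 185 cells and 5.56% against 6.60% for 54. The libraries shared 17 cell barcodes, 13 of them among kept cells.

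Cells were placed in 8 stages by summed UMIs of marker genes, none of them among the 9 genes. The gates held 376 control and 91 other cells for stem or multipotent cells, 256 and 158 for primed progenitors (stem markers and azurophil granule markers such as Elane and Mpo together), 268 and 621 for monocyte progenitors, and 433 and 506 for neutrophil progenitors. They held 219 and 102 cells for pre-neutrophils (azurophil and secondary granule markers together), 2465 and 2713 for Fcnb-high immature neutrophils, 1148 and 1319 for Fcnb-low ones, and 1362 and 1371 for late neutrophils. Antibody tags, which the gates did not use, followed the same order: the median CD117 tag count was 247 and 221 UMIs in primed progenitors and 13 and 8 in late neutrophils, where the Gr1 tag reached 2773 and 2524. Cells of the neutrophil gates with granule markers, most of each library, thus had few CD117 (Kit) tags for a Kit+ label, with medians of 24 and 15 in the Fcnb-high gate. The stages are gates on marker sums and not the authors' annotation, and 42.6% and 53.2% of primed progenitors lay near a threshold, meaning that dividing or multiplying all thresholds by 1.5 moved them.

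On GRCm38 in GENCODE M21, Spi1 lies at chr2:91082390-91115756, Runx1 at chr16:92601466-92826149, Cebpa at chr7:35119293-35121928, Irf8 at chr8:120736358-120756694 and Klf4 at chr4:55527143-55532466. Gfi1 lies at chr5:107716657-107726036, Cebpe at chr14:54710360-54712174, Cebpb at chr2:167688915-167690418 and Cebpd at chr16:15887286-15891031. Counted genes on the opposite strand overlap 5 of them, including Tmem189 at Cebpb, Spidr at Cebpd and A430072P03Rik at Gfi1. Whether counting used strand is not given in the sources used here, so reads of those pairs could be shared. A430072P03Rik had 385 and 501 UMIs over all barcodes, against 4398 and 6193 Gfi1 UMIs over kept cells.

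The Irf8 and Gfi1 promoters are shown because the UMIs of these genes are set against each other below. RefSeq promoters of GRCm38.p6 matched 6 of the 9 genes and list 2 start sites each for Irf8 and Gfi1. Each promoter runs from 250 bases before to 50 after the start site, and was searched on both strands. For each gene the 250 bases before the outermost start are printed, with capitals marking matches. The inner promoters of Irf8 and Gfi1 held no match and are not printed. Each sequence is written 5′ to 3′ on the strand of its gene.
Irf8, chr8:120736108-120736357, plus strand: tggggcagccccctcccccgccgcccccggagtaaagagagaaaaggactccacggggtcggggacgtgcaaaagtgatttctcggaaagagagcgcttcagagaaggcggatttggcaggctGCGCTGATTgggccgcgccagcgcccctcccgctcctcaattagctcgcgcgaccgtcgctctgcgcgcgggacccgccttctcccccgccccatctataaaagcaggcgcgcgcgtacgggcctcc
Gfi1, chr5:107725806-107726055, minus strand: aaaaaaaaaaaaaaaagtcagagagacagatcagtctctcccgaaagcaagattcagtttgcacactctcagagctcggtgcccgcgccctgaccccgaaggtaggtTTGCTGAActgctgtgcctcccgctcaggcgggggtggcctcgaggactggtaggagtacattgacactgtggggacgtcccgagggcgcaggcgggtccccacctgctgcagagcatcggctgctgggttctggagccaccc
The Irf8 stretch held 1 match to the GFI1 pattern AATCNNNGC, read on the opposite strand, with its first base 127 bases before the start site. The Gfi1 stretch held 1 match to the C/EBP pattern TTGCNNAA at 143 bases before the start. Among 32544 promoters of 300 bases, 10.3% held the first pattern and 10.8% the second, so both are common patterns, and a match is only a description of the letters. No other pattern searched was found in either. Those were GAGGAA for PU.1, which 28.1% of promoters held, TGTGGT for RUNX factors, which 16.7% held, and AGATAA for the erythroid GATA factors, which 11.2% held.

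Spi1 UMIs were present along the whole series of stages and were highest in late neutrophils. In the control library Spi1 stood at 94.7 CPM in stem or multipotent cells, 184 in primed progenitors, 250 in monocyte progenitors, 235 in neutrophil progenitors, 381 in pre-neutrophils, 420 and 418 in the Fcnb-high and Fcnb-low immature neutrophils, and 502 in late neutrophils. The intervals of the monocyte and neutrophil progenitors overlapped, as did those of both immature stages, and all other neighbours in this order were apart. Between the libraries Spi1 differed by at most 0.32 on the log2 scale in 7 of 8 stages. The exception was the stem or multipotent gate, where it was at 60.8 CPM in the library labelled Utx-deleted, a log2 ratio of -0.63 (interval -0.90 to -0.38), with -0.56 and -0.65 in the cells of hashtags 1 and 2. That ratio kept its sign in 14 of 15 alternative settings of the processing and was 0.21 in the other. The Fcnb-high and Fcnb-low ratios of -0.082 and -0.046 changed sign under other scalings of the totals.

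Among the 8 stages Runx1 was highest at the start, at 1204 CPM in control stem or multipotent cells and 1225 in primed progenitors. It was at 691 in monocyte progenitors and 409 in neutrophil progenitors. Pre-neutrophils and the immature stages were above the latter, with 480 to 522, and late neutrophils were lowest at 359. The stem and primed intervals overlapped. Its level was highest outside these stages, in basophil and mast cell progenitors, with 3562 and 3864 CPM in the control and the other library. Runx1 was higher in the library labelled Utx-deleted at the top of the series, at 1448 CPM in the stem gate (log2 ratio 0.27, interval 0.21 to 0.32) and 1541 in primed progenitors (0.33, interval 0.29 to 0.37). It was lower at the end, with log2 ratios of -0.30 in Fcnb-high, -0.17 in Fcnb-low and -0.34 in late neutrophils. Both hashtags gave the same sign in each of those 5 stages. In pre-neutrophils the ratio was 0.033 and its sign depended on the scaling. T or NK cells, 31 and 36 in number, were the 1 cell type where Runx1 passed 2-fold, at 504 and 1102 CPM (log2 ratio 1.12, interval 0.83 to 1.43), where 3.34% of 989 genes did.

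Among the 8 stages of the control library Cebpa was highest in primed progenitors, at 147 CPM. In the other library primed (133, interval 123 to 143) and monocyte progenitors (130, interval 125 to 136) overlapped at the top. Monocyte and neutrophil progenitors had 113 CPM each in the control library, pre-neutrophils 55.5, and Fcnb-high immature neutrophils 7.12. The log2 ratios ran from -0.68 (interval -1.24 to -0.21) in the stem gate to 0.48 (0.21 to 0.74) in pre-neutrophils, and lay between -0.17 and 0.20 in the primed, monocyte and neutrophil progenitors. The stem ratio kept its sign in 14 of 15 alternative settings and was 0.013 in the other. After each cell was thinned to 2000 UMIs, 14.2% of control monocyte progenitors and 23.8% of those in the other library had a Cebpa UMI (91.8% and 91.3% unthinned, at medians of 32237 and 26824 UMIs), and the thinned intervals did not overlap. Thinned to 10000 UMIs, which left out 12 and 16 cells, the shares were 69.5% and 70.4%. Megakaryocyte or erythroid progenitors had 2.70% and 0 of 54 (up to 5.56%) at 2000 UMIs, and 18.9% and 22.2% unthinned. These cells serve as the reference below, and their makeup differed between the libraries. Their median erythroid marker sum was 10.9 and 0.24 per 10000 UMIs, and their median megakaryocyte marker sum 1.05 and 21.7. Basophil and mast cell progenitors had the highest Cebpa level of the control library, 279 CPM, and 163 in the library labelled Utx-deleted (log2 ratio -0.77).

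**Figure D1:**
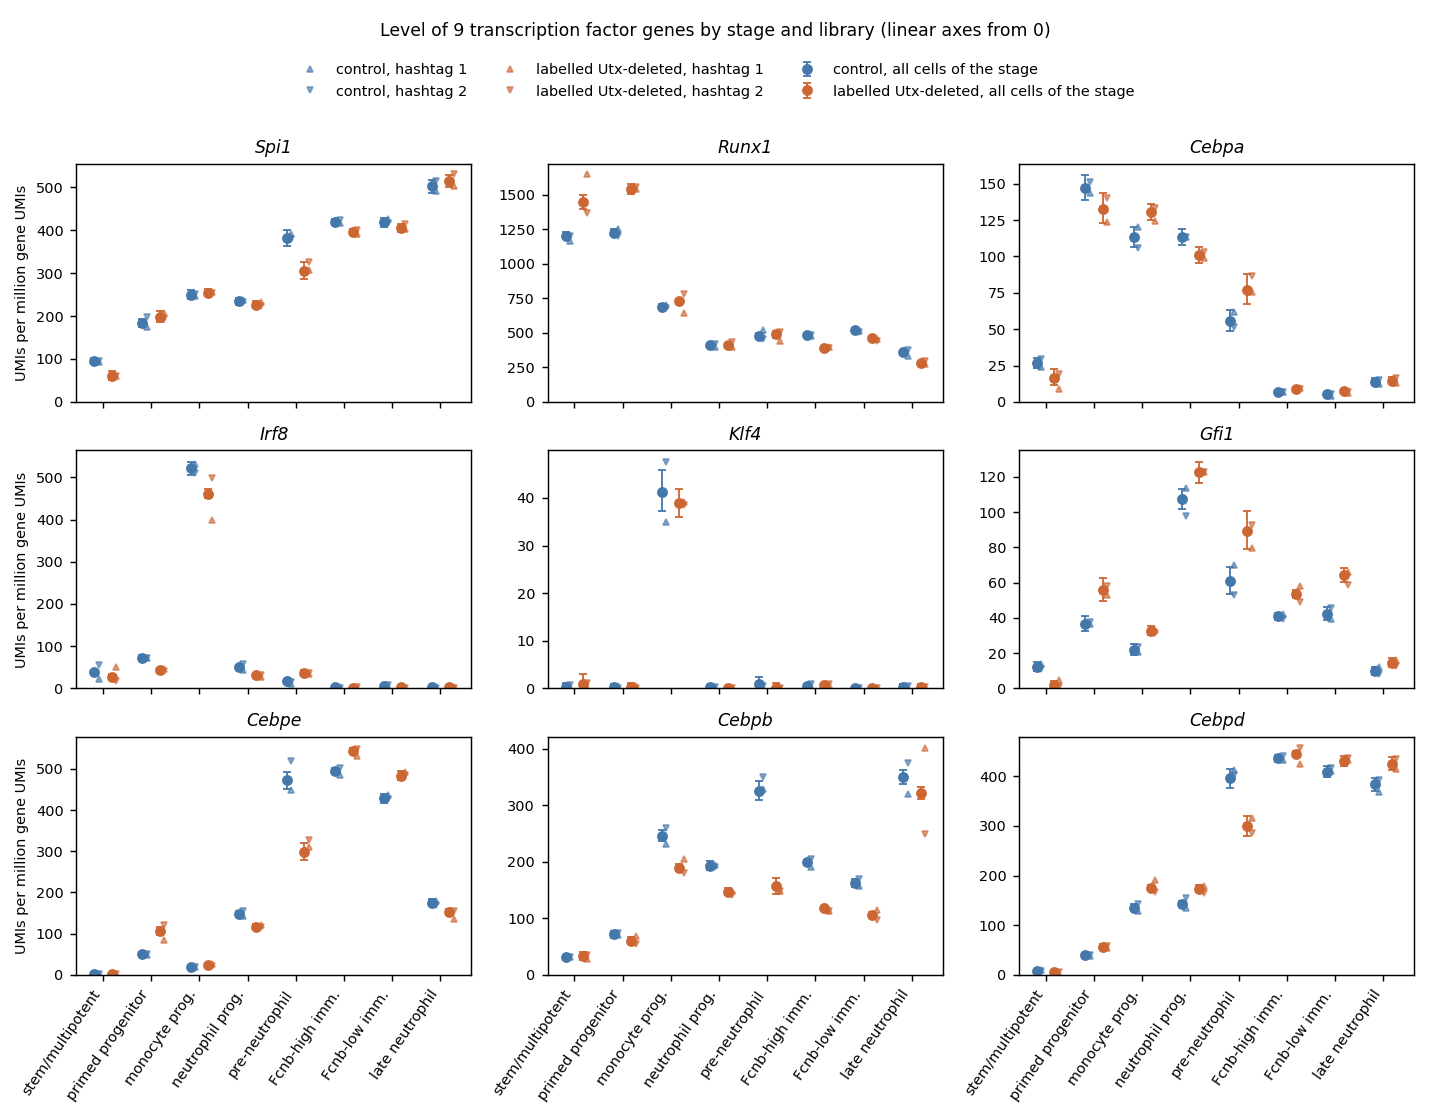
Level of each gene in CPM, UMIs per 1000000 gene UMIs (vertical axis, linear, from 0) in the 8 stages (horizontal axis). Circles are all cells of a stage with exact Poisson intervals, and triangles the cells of each hashtag, for the control library in blue and the library labelled Utx-deleted in orange. Irf8 reached 521 and 461 and Klf4 41.3 and 38.9 in monocyte progenitors, while Gfi1 peaked in neutrophil progenitors at 107 and 122.

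Irf8, the interferon regulatory factor of the monocyte and dendritic lineages, was concentrated in monocyte progenitors, which held 59.8% of its control UMIs and 75.2% in the other library. There it stood at 521 CPM in control cells (hashtags 533 and 511). The library labelled Utx-deleted had 461 CPM (hashtags 399 and 498). The log2 ratio was -0.18 (interval -0.23 to -0.12), with -0.41 in hashtag 1 and -0.036 in hashtag 2. Dendritic cells, 22 and 32 in number, had the highest level of any cell type, 1888 and 1390 CPM.

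Below that peak, Irf8 was lower in both progenitor stages that carry azurophil markers without monocyte markers. In primed progenitors it was at 71.8 CPM in control cells against 42.7 in the library labelled Utx-deleted, a log2 ratio of -0.75 (interval -0.99 to -0.52; hashtags -0.66 and -0.85). In neutrophil progenitors it was at 50.4 and 30.7 CPM, a ratio of -0.72 (interval -0.90 to -0.54; hashtags -0.67 and -0.86). The sizes depended on the gates. With thresholds divided by 1.5 the neutrophil progenitor ratio was -1.33, and with thresholds multiplied by 1.5 the primed ratio was -1.06, both past 2-fold. These were the largest sizes among the alternative settings, and the smallest were -0.34 in neutrophil and -0.62 in primed progenitors. The sign was kept in all of them. In both stages each control hashtag was above each hashtag of the other library. In cells thinned to 2000 UMIs, 11.8% of control primed progenitors and 3.80% of the others had an Irf8 UMI (55.9% and 43.0% unthinned, at medians of 28047 and 31926 UMIs), against none of 185 and 54 megakaryocyte or erythroid progenitors, which allows up to 1.62% and 5.56% (medians of 23090 and 32133 UMIs). The thinned 3.80% is thus not above what 0 of 54 cells allows, while unthinned 3.24% and 5.56% of these reference cells had an Irf8 UMI. By level, primed progenitors of the library labelled Utx-deleted had 42.7 CPM of Irf8 (interval 37.2 to 48.7). Reference cells of that library had 1.60 CPM (interval 0.33 to 4.66). T or NK cells were the planned reference, and 3.23% and 11.1% of these had a thinned Irf8 UMI.

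Elsewhere Irf8 rested on few cells. In the stem gate the log2 ratio was -0.47, the hashtags gave opposite ratios, 1.21 and -1.55, and 7 cells held all 65 UMIs of the library labelled Utx-deleted, 1 of them 32. In pre-neutrophils Irf8 was at 16.7 and 37.1 CPM, a ratio of 1.14 (interval 0.71 to 1.60), but 10 cells held 90.3% and 82.3% of these UMIs. Without the top cell of each library, a check added after seeing the data, these ratios were -1.08 in the stem gate and 1.16 in pre-neutrophils. In Fcnb-low immature neutrophils the ratio was -0.86, but 1 control cell held 36 of 63 UMIs: without it the ratio was 0.33 (interval -0.38 to 1.10), and without the top cell of each library -0.27 (-1.08 to 0.55). The thinned share of cells with Irf8 was 0.775% or below in the Fcnb-high, Fcnb-low and late neutrophils of either library (1.69% to 2.84% unthinned). That is under the limits set by the megakaryocyte or erythroid progenitors, and these shares are read as background.

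Klf4, the zinc finger factor that acts beside Irf8 in monocytes, was almost restricted to monocyte progenitors, with 77.6% and 79.8% of its UMIs. There it was at 41.3 CPM in control cells (hashtags 34.9 and 47.6) and 38.9 in the other library (hashtags 39.1 and 38.4), a log2 ratio of -0.089 (interval -0.27 to 0.10). The hashtags overlapped between the libraries. Outside that gate its level was at most 0.93 CPM in any of the other 7 stages of either library, and only monocyte progenitors reached 100 UMIs, the number needed for a gene to be compared. Dendritic cells had 127 and 83.4 CPM, from 45 and 42 UMIs.

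Gfi1, the repressor on the neutrophil side, was higher in the library labelled Utx-deleted in 7 of 8 stages, and both hashtags gave that sign in each of the 7. It stood at 36.7 and 55.8 CPM in primed progenitors, 22.0 and 32.7 in monocyte progenitors, 107 and 122 in neutrophil progenitors and 60.8 and 89.3 in pre-neutrophils. The immature stages had 40.8 and 53.3 CPM (Fcnb-high) and 42.4 and 64.0 (Fcnb-low), and late neutrophils 9.77 and 14.6. The log2 ratios were 0.61, 0.57, 0.19, 0.55, 0.39, 0.59 and 0.57 in the order given, and the stage of highest Gfi1 level had the smallest of these ratios. The control order ran from neutrophil progenitors through pre-neutrophils to the immature stages and primed progenitors, whose intervals overlapped, and on to monocyte progenitors. Of 5537 genes with 100 UMIs in each stage, 12.6% were higher in at least 7 of the 8, and none of the 7 ratios reached 2-fold. The thinned shares of cells with a Gfi1 UMI were 6.91% and 11.9% in Fcnb-low cells (28.9% and 42.3% unthinned) and 1.53% and 6.97% in monocyte progenitors (43.7% and 48.3% unthinned), with intervals apart between the libraries. The 1.53% was 4 of 261 cells, and thinned to 10000 UMIs the shares in monocyte progenitors were 17.6% and 24.5%. Megakaryocyte or erythroid progenitors, the reference, had 0.541% and 0 of 54 (up to 5.56%) at 2000 UMIs. In late neutrophils they were 2.46% and 2.65% (5.58% and 9.19% unthinned). Unthinned, 1.62% of control reference cells had a Gfi1 UMI, and the control reference level was 1.01 CPM (interval 0.33 to 2.37). The late neutrophil levels, with intervals of 7.79 to 12.1 and 12.3 to 17.1, were above it.

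The stem or multipotent gate went the other way. Gfi1 had 104 UMIs in 75 of the 376 control cells and 4 UMIs in 3 of the 91 other cells, or 12.4 and 1.68 CPM, a log2 ratio of -2.58 (interval -4.79 to -1.49; hashtags -1.21 and -3.27). This was 1 of 6 compared genes past 2-fold in that gate, where 4.12% of 9193 genes were past it. The receptor genes Csf3r (612 and 26 UMIs) and Csf2rb (117 and 5 UMIs) were lower in the same gate, and the median azurophil marker sum was 3.7 and 1.9 per 10000 UMIs. When each cell was instead given the stage of its highest marker score, the Gfi1 ratio in stem cells was 0.59. Whether the makeup of the gate sets the difference was not tested.

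Cebpe, which drives secondary granule genes and the exit of neutrophil precursors from division, had the largest ratio in primed progenitors. It stood at 49.7 CPM in control cells (hashtags 48.7 and 51.2). The library labelled Utx-deleted had 106 CPM (hashtags 85.3 and 121), and its hashtags did not overlap those of the control. The log2 ratio was 1.10 (interval 0.90 to 1.29; hashtags 0.81 and 1.24), and 0.94 with the marker thresholds divided by 1.5. It was the 1 of 8 compared genes past 2-fold there, where 2.5% of 9118 genes were. The thinned share of cells with a Cebpe UMI was 7.48% and 17.7% (41.8% and 63.9% unthinned), with intervals apart. Megakaryocyte or erythroid progenitors had 1.08% and 0 of 54 (up to 5.56%), and 5.41% and 14.8% unthinned, at medians of 23090 and 32133 UMIs. Monocyte progenitors had the same sign, at 18.6 and 25.1 CPM (log2 ratio 0.43, hashtags 0.55 and 0.25). In the later neutrophil series the sign varied: the ratio was -0.33 in neutrophil progenitors and -0.66 in pre-neutrophils, then 0.13 and 0.17 in the Fcnb-high and Fcnb-low stages, at 495 and 543 CPM and at 428 and 483 CPM, and -0.21 in late neutrophils. In control cells the Fcnb-high and pre-neutrophil (472 CPM) intervals overlapped at the top, and in the other library Fcnb-high and Fcnb-low cells were highest.

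Cebpb was lower in the library labelled Utx-deleted in 7 of 8 stages, or 6 where the total leaves out the 50 most abundant genes and late neutrophils change sides, and 23.6% of 5537 genes were lower in at least 7. The sizes were largest in the granule-bearing stages. Fcnb-high immature neutrophils had 199 CPM in control cells (hashtags 192 and 205) and 118 CPM in the others (hashtags 114 and 112), a log2 ratio of -0.76 (interval -0.81 to -0.70). Fcnb-low ones had 163 and 107 CPM (-0.61), monocyte progenitors 247 and 190 (-0.38) and neutrophil progenitors 194 and 147 (-0.39). Every hashtag of the control library was above every hashtag of the other in these 4 stages. Split by azurophil sum, a choice made after seeing the data, monocyte progenitors from 20 to 80 per 10000 UMIs (32 and 19 cells) had the other order, 176 and 294 CPM with intervals apart, and those from 80 to 200 (242 and 167) and above (286 and 197) the order of the whole stage. Late neutrophils broke the pattern: the ratio was -0.12, the hashtags gave 0.33 and -0.58, and the value was 0.00016 under that other total. Basophil and mast cell progenitors (79 and 59 cells) had 188 and 64.7 CPM, the lowest ratio of Cebpb in any cell type with 100 UMIs (-1.52, interval -1.96 to -1.14), where 3.18% of 4584 genes were past 2-fold.

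Cebpd stood higher at each step of the neutrophil series in control cells up to the Fcnb-high stage, with 39.1 CPM in primed progenitors, 143 in neutrophil progenitors, 396 in pre-neutrophils and 436 in Fcnb-high immature neutrophils. It was higher in the library labelled Utx-deleted in 3 progenitor stages, with log2 ratios of 0.52 in primed, 0.37 in monocyte and 0.28 in neutrophil progenitors and the same sign in both hashtags. The stem gate, with 72 and 12 UMIs, was under the number needed for a comparison, at 8.58 and 5.03 CPM. In pre-neutrophils it was lower, at 396 and 299 CPM (log2 ratio -0.40, interval -0.52 to -0.29, hashtags -0.38 and -0.49). That ratio kept its sign in 13 of 14 alternative settings and was 0.0083 in the other. In the Fcnb-high, Fcnb-low and late stages the ratios were 0.029, 0.074 and 0.15.

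Pre-neutrophils carried the other 2 of the 4 ratios past 2-fold, out of 62 compared gene and stage pairs: Irf8 at 1.14 (above) and Cebpb at -1.05 (326 and 157 CPM), 2 of 8 compared genes where 5.93% of 7071 genes were past 2-fold. In that gate 11.9% of control barcodes and 27.5% of the others carried both hashtags. The median azurophil sum was 54.3 and 172 per 10000 UMIs, and the median CD117 tag count 50 and 201. Without barcodes of both hashtags the ratios were 1.53 for Irf8 and -1.19 for Cebpb, and without doublet removal they were 0.37 and -0.71, so neither passed 2-fold in the latter. The Cebpb ratio was also under 2-fold with thresholds divided by 1.5 (-0.97), as a mean over cells (-0.86) and without the 5% deepest cells (-0.92). TMM scaling, a trimmed-mean scaling of the totals, moved all ratios of this gate by 0.11. With the main settings none of the 9 genes was past 2-fold in the other 5 stages. Of all genes, 2.37% were past it in monocyte progenitors and 2.01% in neutrophil progenitors. The shares were 4% in Fcnb-high, 2.94% in Fcnb-low and 4.6% in late neutrophils. Under alternatives Irf8 passed it in neutrophil progenitors (-1.33 with thresholds divided by 1.5) and in Fcnb-low cells (-1.11 without doublet removal). At 1.5-fold, 14 of the 62 pairs passed, and the share of all genes was 10.8%, 8.3%, 6.78%, 6.52%, 22.4%, 9.43%, 8.26% and 13.1% from the stem gate to late neutrophils. The median log2 ratio of the compared genes lay between -0.55 in the stem gate and 0.22 in primed progenitors, and that of all genes between -0.081 and 0.024 over the 8 stages.

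**Figure D2:**
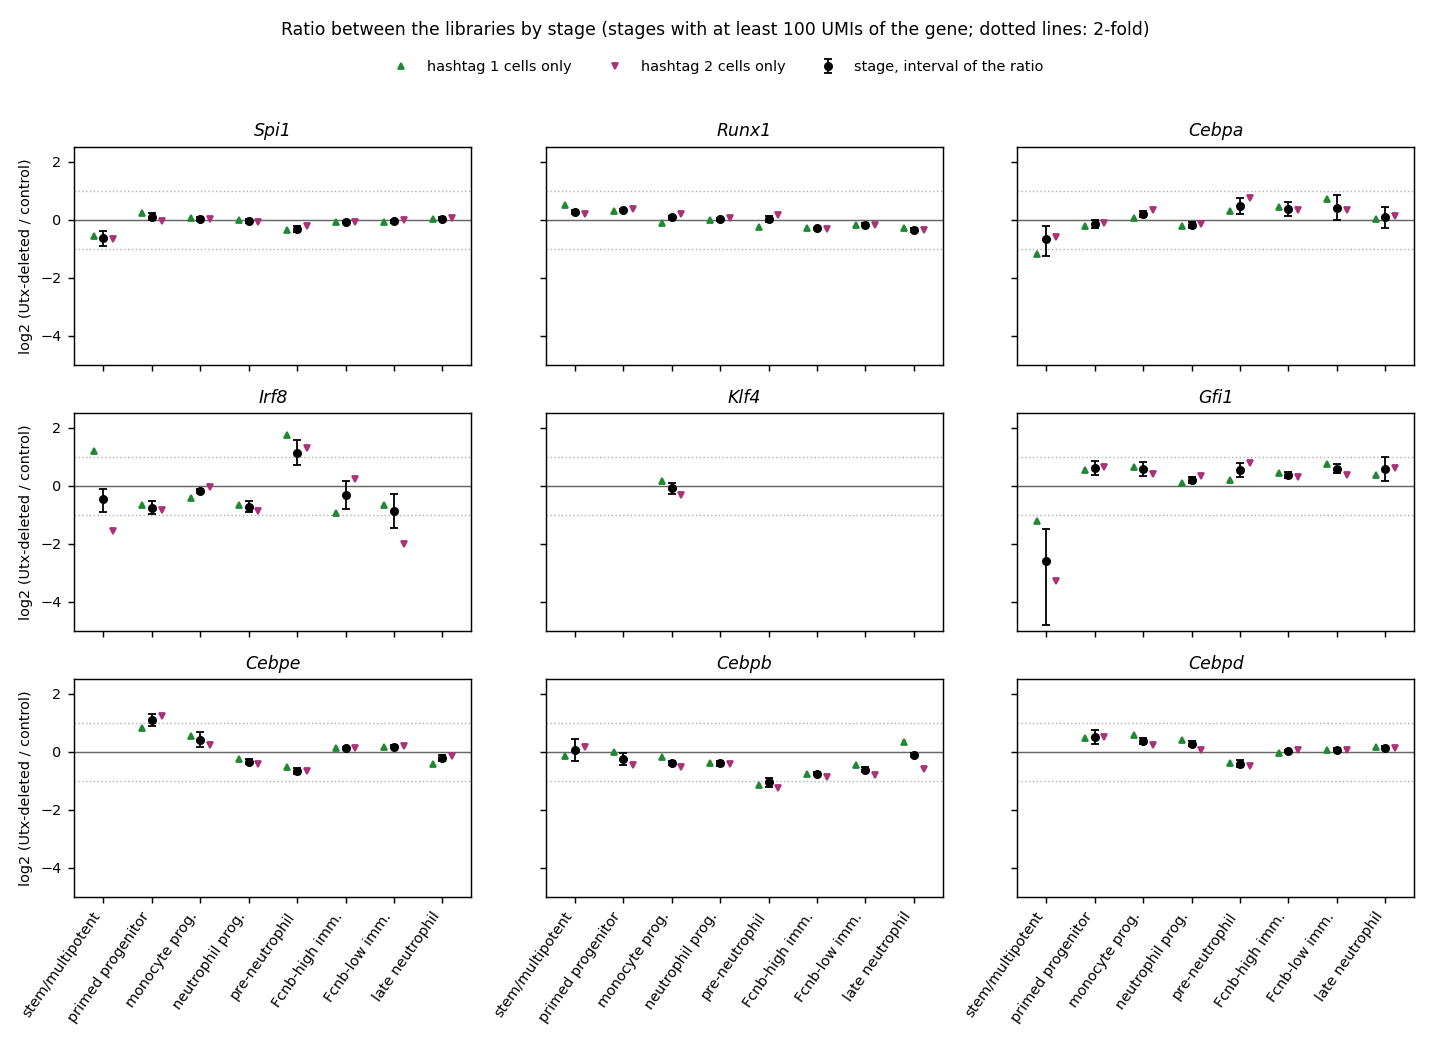
Log2 ratio of the library labelled Utx-deleted over control (vertical axis) in each stage (horizontal axis), for stages with at least 100 UMIs of the gene. Black points carry the interval of the ratio, triangles are the cells of 1 hashtag, and dotted lines mark 2-fold. Gfi1 lies above 0 in 7 stages and at -2.58 in the stem gate, Cebpb below 0 in 7, and Cebpe at 1.10 in primed progenitors.

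The balance of Irf8 and Gfi1 was taken as the Irf8 share of the UMIs of both genes. Capture can differ between genes, so the share is compared between cells and not read as a ratio of transcripts. In the control library it was 66.2% in primed progenitors, 95.9% in monocyte progenitors and 32% in neutrophil progenitors. In the library labelled Utx-deleted it was 43.3%, 93.4% and 20.02%, lower in each of the 3. The differences were -22.9 percentage points (interval -28.3 to -17.3), -2.57 (-3.34 to -1.78) and -12.0 (-14.6 to -9.31). Both hashtags of the control library lay above both of the other: 66.5% and 66.0% against 46.0% and 40.8% in primed progenitors, and 28.0% and 37.0% against 18.4% and 20.4% in neutrophil progenitors. The stem gate had 75.5% and 94.2%, resting on the 4 Gfi1 UMIs given earlier, and pre-neutrophils 21.6% and 29.4%. In Fcnb-high, Fcnb-low and late neutrophils the shares were 5.05% and 3.18%, 10.5% and 4.10%, and 21.5% and 14.1%, on Irf8 counts of 75 or fewer, read as background above, with 36 of the 63 in control Fcnb-low from 1 cell. Over all cells the libraries had 63.4% and 63.02%.

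**Figure D3:**
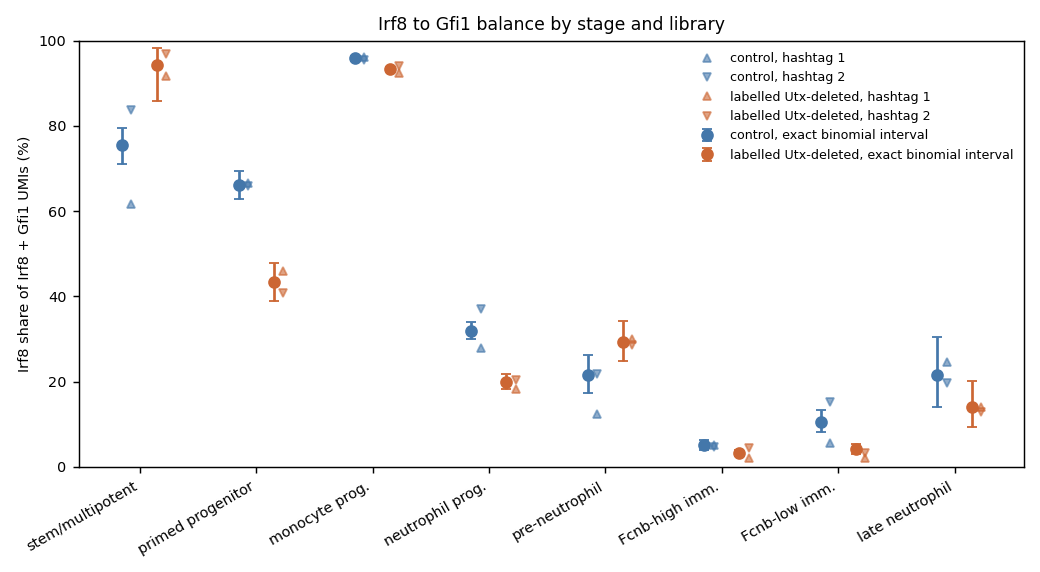
Irf8 share of the summed Irf8 and Gfi1 UMIs, in percent (vertical axis), by stage (horizontal axis), with exact binomial intervals, and triangles for each hashtag. In primed progenitors the control library is at 66.2% and the library labelled Utx-deleted at 43.3%, and in neutrophil progenitors at 32% and 20.02%.

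The primed gate held cells of unequal progress, with a median azurophil sum of 67.1 and 110 per 10000 UMIs, so it was split by that sum, a choice made after seeing the data. Among cells from 20 to 80 per 10000 (148 control and 40 other cells), the Irf8 share was 76.1% (interval 72.0% to 79.8%) and 43.9% (30.7% to 57.6%). Irf8 stood at 84.6 and 21.6 CPM there, Gfi1 at 26.6 and 27.6, and Cebpe at 13.4 and 34.5. Among cells from 80 to 200 (105 and 106 cells) the share was 53.4% and 44.1%, with intervals of 47.8% to 59.0% and 39.2% to 49.2% that overlapped, Irf8 at 54.9 and 48.7 CPM, Gfi1 at 47.9 and 61.6, and Cebpe at 97.7 and 130. In the cells with the fewest azurophil UMIs, Irf8 was lower, from 25 UMIs in the library labelled Utx-deleted. The Gfi1 intervals overlapped there. Further on the Irf8 intervals overlapped too, and those of Cebpe were apart in both bins. In neutrophil progenitors of 200 or more the share was 28.8% and 16.8%, and in those from 80 to 200 it was 46.0% and 39.3%, with intervals of 40.9% to 51.1% and 33.7% to 45.2% that overlapped. Irf8 stood at 64.2 and 61.5 CPM in the latter bin and at 46.8 and 25.7 in the former. Cebpe changed sides between these bins of neutrophil progenitors, at 128 and 178 CPM from 80 to 200 and 153 and 106 above. Cebpb did not, at 122 and 77.4 and at 213 and 159. Monocyte progenitors had an Irf8 share of 96.8% and 99.6% from 20 to 80 (32 and 19 cells), 96.3% and 94.2% from 80 to 200, and 94.8% and 91.8% above.

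Cells with UMIs of both genes were counted after equal depth was set, since deeper cells show more of both. After thinning to 10000 UMIs, 24.6% of 248 control primed progenitors had Irf8 only, 23.0% Gfi1 only, 9.27% both and 43.1% neither. In the library labelled Utx-deleted, of 156 such cells 16.0% had Irf8 only, 32.7% Gfi1 only, 6.41% both and 44.9% neither. The intervals of each class overlapped between the libraries. Without thinning, 33.2% and 31.0% of primed progenitors had both. Neutrophil progenitors had Gfi1 only in 51.9% and 58.5% and both in 11.6% and 6.41%, and monocyte progenitors Irf8 only in 80.1% and 71.6% and both in 16.4% and 20.7%. In neutrophil progenitors 49 and 32 cells had both, where the product of the single shares gives 61.5 and 49.3 cells. Counts were also below the product in primed and monocyte progenitors. Primed progenitors had 23 and 10 against 27.1 and 13.7 cells, and monocyte progenitors 42 and 125 against 43.4 and 136.5.

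**Figure D4:**
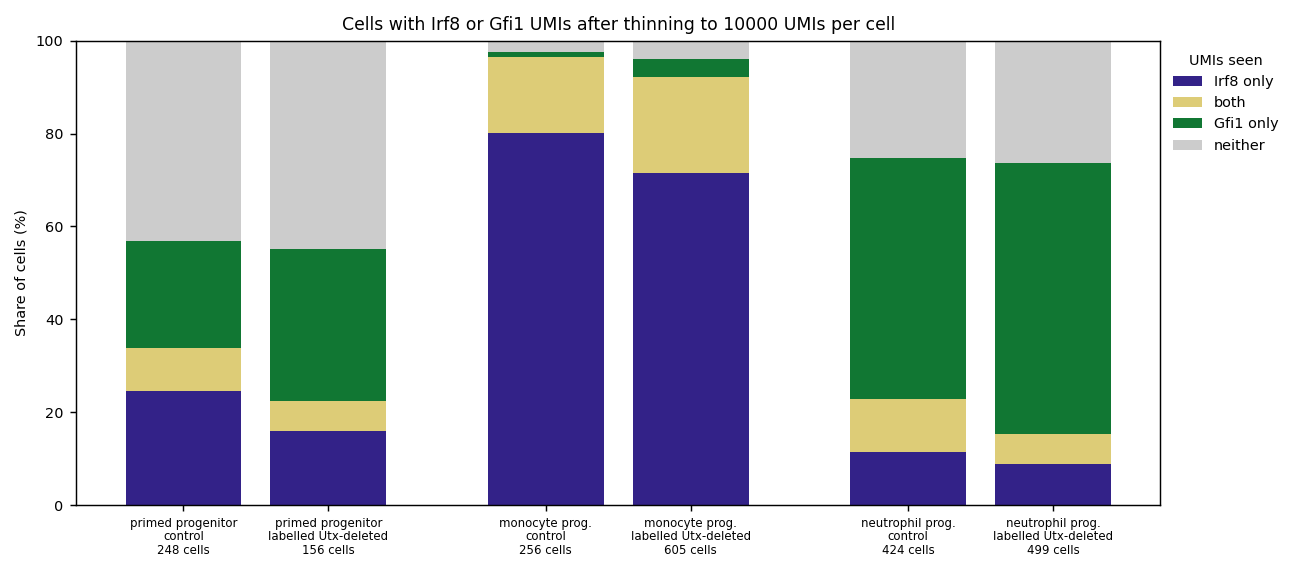
Share of cells (vertical axis, percent) with UMIs of Irf8 only, both genes, Gfi1 only or neither after thinning to 10000 UMIs, for 3 progenitor stages in each library. Gfi1 only takes 23.0% and 32.7% of primed progenitors and Irf8 only 24.6% and 16.0%.

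Among the other genes, Cebpe had separate intervals between cells with Irf8 only and with Gfi1 only in primed and neutrophil progenitors of both libraries. In primed progenitors the median azurophil sum of these classes was 49.5 and 108 per 10000 UMIs in control cells. In the other library it was 119 in each class. In control primed progenitors Cebpe was at 6.56 CPM (interval 1.79 to 16.8) in cells with Irf8 only and 61.4 (42.8 to 85.4) in cells with Gfi1 only. In the other library Cebpe was at 28.0 (11.3 to 57.7) and 120 (91.5 to 154). Neutrophil progenitors showed the same order, 56.2 and 172 CPM in control cells and 63.6 and 140 in the others. In control neutrophil progenitors the intervals of Cebpd (100 and 170 CPM) and Spi1 (194 and 259) were apart too. In the other library both overlapped. In primed progenitors of each library the intervals of Cebpa, Cebpb, Cebpd, Spi1 and Runx1 overlapped between cells with Irf8 only and with Gfi1 only, with Cebpa at 152 and 142 CPM in control cells and 112 and 149 in the others. In monocyte progenitors of the library labelled Utx-deleted, the 23 cells with Gfi1 only had Cebpe at 113 CPM and no Klf4 UMI, against 19.9 and 52.0 CPM in the 433 cells with Irf8 only. Their median azurophil sum was 351 per 10000 UMIs, against 203.

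Totals over all cells differed from the values within stages, and the stages took unequal shares of each library. Monocyte progenitors were 3.82% of control cells and 8.62% of the others. Irf8 over all cells was at 70.3 and 92.3 CPM, a log2 ratio of 0.39, and -0.19 when the control library was given the stage weights of the other. Klf4 went from 0.77 to -0.037 and Spi1 from 0.081 to -0.046. Gfi1 kept its ratio, 0.41 and 0.40, and Cebpb had -0.32 and -0.48. Over all cells 6.75% of 13558 genes and none of the 9 genes were past 2-fold.

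**Figure D5:**
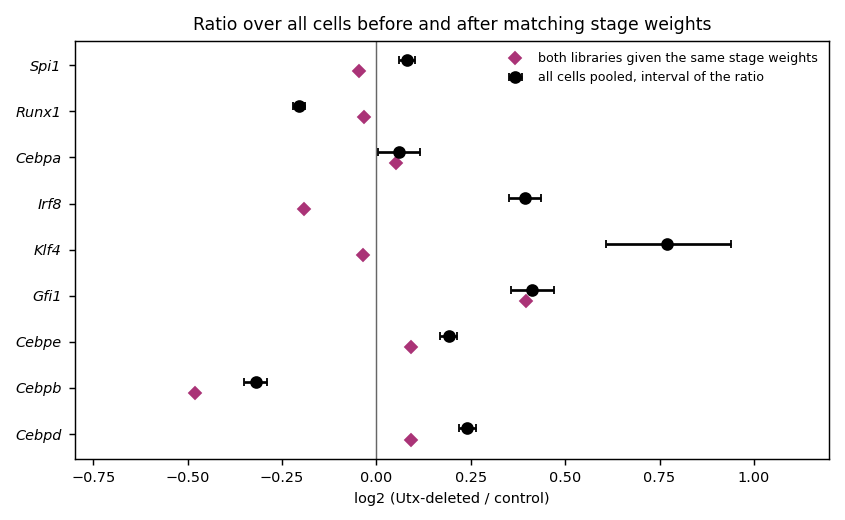
Log2 ratio of the library labelled Utx-deleted over control for all cells pooled (black, with the interval of the ratio) and with the same stage weights in both libraries (diamonds), for each gene. Irf8 goes from 0.39 to -0.19 and Klf4 from 0.77 to -0.037, while Gfi1 stays at 0.41 and 0.40.

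Related genes were counted from 3 lists. Of 28 partner and rival regulators, 16 to 19 had 100 UMIs in a stage. In pre-neutrophils 4 of 17 were past 2-fold, where 5.93% of all genes were. Higher were Myb (log2 ratio 1.01), a progenitor factor, and Zeb2 (1.73), a zinc finger repressor, and lower were Id1 (-1.12) and Id2 (-1.42), inhibitors of E proteins. Zeb2 was also past 2-fold in Fcnb-low immature neutrophils (1.01), 1 of 18 against 2.94% of all genes. In the other stages 5 were lower past 2-fold: Irf5 in monocyte progenitors (-1.24, 1 of 19 against 2.37%), Id2 in neutrophil progenitors (-1.38, 1 of 17 against 2.01%), and Runx2 (-1.18), Runx3 (-1.28) and Trib1 (-1.09), which directs C/EBPα protein to degradation, in late neutrophils (3 of 18 against 4.6%). Of 10 cytokine receptors 7 to 9 were compared in a stage. Csf3r (-2.69), Csf2rb (-2.48) and Il6ra (-1.59) were lower in the stem gate, 3 of 7 against 4.12% of all genes. Il1r2 was lower in pre-neutrophils (-1.73), 1 of 7 against 5.93%. In Fcnb-high cells 2 of 9 were past 2-fold, against 4%: Csf2rb2 was lower (-3.02) and Csf1r, also a marker of the monocyte gate, higher (1.06, from 31 and 76 UMIs). In primed progenitors none of the 16 regulators and 7 receptors passed 2-fold, and 2.5% of all genes did. None of the 5 genes for partners of Gfi1 in repression, Kdm1a, Rcor1, Hdac1, Hdac2 and Ehmt2, passed it in any stage, and their median log2 ratio per stage lay between -0.13 and 0.21.

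The genes whose log2 levels followed each factor most closely over 11 control cell types, among 11336 genes, were Serpinf1, Ly9 and Ly86 for Irf8 (Pearson r of 0.98, 0.96 and 0.96), Gadd45b, Dtx4 and Tspan2 for Gfi1 (0.92, 0.91 and 0.91) and Ncam1 and Olr1 for Cebpe (0.97 each), after the predicted gene Gm49668. Pstpip1 and Rab27a led for Spi1, Igsf6 and Dram1 were among the first 3 for Cebpd, Arpc1b and Fes led for Cebpb, Ccl9 and Papss2 for Cebpa, and Serpini1 for Runx1. Ly86 is one of the monocyte markers that set the gates. Between the factors themselves r was 0.94 for Cebpd and Spi1, 0.93 for Cebpd and Cebpe, 0.63 for Irf8 and Klf4, 0.40 for Irf8 and Gfi1, and -0.74 for Cebpe and Runx1. The corresponding values over 10 cell types of the other library were 0.96, 0.91, 0.69, 0.30 and -0.60. These points share libraries and few cell types, so the values are descriptions.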

How the data were processed

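The deposited matrices hold raw counts of UMIs per gene and cell barcode, made with Cell Ranger 7.1.0 (per the file headers), for 32285 genes and 15 antibody tags, and per the submitters' processing notes they refer to mm10. How barcodes were called as cells is not given in the sources used here. Cells with at least 500 genes and under 10% mitochondrial UMIs were kept. Scrublet (scanpy 1.11.5) marked 1 and 0 cells by itself, which had not worked, so the top 6% of scores in each library were left out (467 and 463 cells). Marker thresholds per 10000 UMIs were stem 8, azurophil 20, monocyte 8, granule 40, late 40 and Fcnb list 10, set on the marker sums of these data. UMIs were summed per stage and library, scaled to 1e+06, and 1 UMI was added to each sum for ratios. Genes needed 100 UMIs over both libraries to be compared. For shares of cells, cells were thinned to 2000 UMIs (165 and 79 shallower cells left out). A hashtag was called at 100 UMIs and 5 times the other, and 204 and 451 kept barcodes carried both. All 9 genes are named, and related genes are named if past 2-fold. The genes and lists were chosen with earlier results of these data known. Ratios and thinning were tested on simulated data (Python 3.11.15, scipy 1.17.1). Alternatives covered cell and doublet filters, hashtags, thresholds, scaling, minimum UMIs, fold and thinning.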

Additional observations from a re-analysis of the deposited data

Results flagged for a closer look

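For 3 genes the libraries differed in opposite directions in different stages, each by at least 1.5-fold, with intervals off 0 and the same sign in both hashtags. These differences between stages were not tested. How many of all genes meet this rule was not counted, and 6.52% to 22.4% of all genes passed 1.5-fold, by stage. The 3 genes are therefore listed only, and their number is not read as a result. Cebpe had a log2 ratio of 1.10 in primed progenitors and -0.66 in pre-neutrophils. The pre-neutrophil ratio of Cebpe ran from -0.77 to -0.24 over the alternative settings, the latter under 1.5-fold. Gfi1 had 0.61 in primed progenitors and -2.58 in the stem or multipotent gate, the latter from 4 UMIs in the library labelled Utx-deleted. With stages from the highest marker score the stem ratio of Gfi1 was 0.59. In primed progenitors split by azurophil sum, Gfi1 was at 26.6 and 27.6 CPM from 20 to 80. From 80 to 200 it was at 47.9 and 61.6 CPM, and the intervals overlapped in both bins. Irf8 had 1.14 in pre-neutrophils and -0.86 in Fcnb-low immature neutrophils, and in both stages few cells held most of its UMIs. Without doublet removal the pre-neutrophil ratio was 0.37. Irf8 also had -0.75 in primed and -0.72 in neutrophil progenitors. The Fcnb-low value does not hold: without 1 control cell with 36 of 63 UMIs it was 0.33, and Irf8 in that stage is read as background. Barcodes with both hashtags were 11.9% and 27.5% of the pre-neutrophil gate, and their part in its values was not tested beyond leaving them out.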

How the results depend on the processing

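No paired analysis was possible because each group has 1 library. Of 62 compared gene and stage pairs, 4 changed sign under TMM scaling or a total without the 50 most abundant genes, none with a log2 ratio above 0.12 in size. The difference in the Irf8 share kept its sign in primed, monocyte and neutrophil progenitors under the alternatives that gave a value, with bins of under 20 cells left out. Of those bins it turned in monocyte progenitors from 20 to 80 (32 and 19 cells), with intervals of 95.1% to 98.00% and 98.05% to 99.99% apart. It also turned in primed progenitors of 200 or more (3 and 12 cells, 9.09% and 37.0%). In primed progenitors it was -38.9 points in cells thinned to 2000 UMIs, -17.3 without the 5% of cells with most UMIs (an alternative, like the azurophil bins and the thinning to 10000 UMIs, chosen after seeing the data), and -32.2 and -9.28 in the lower and middle azurophil bins. In neutrophil progenitors it was -16.6 in hashtag 2, -8.50 with thresholds multiplied by 1.5, -6.35 with stages from the highest score, -6.65 without the deepest cells, -8.31 thinned to 10000 UMIs and -6.63 in the middle bin. In monocyte progenitors it was -3.88 and -1.54 in hashtags 1 and 2, -3.85 with thresholds divided by 1.5 and -5.28 thinned to 2000 UMIs. In the stem gate it was 30.03 in hashtag 1, 26.2 without the deepest cells and, reversed, -23.2 with stages from the highest score, where Gfi1 itself had a log2 ratio of 0.59. In pre-neutrophils it was -0.87 without doublet removal, 17.5 in hashtag 1 and 20 thinned to 2000 UMIs. In Fcnb-high cells it was -4.09 without doublet removal and -0.25 in hashtag 2. In Fcnb-low cells it was -3.44 and -12.0 in hashtags 1 and 2, -1.17 and -3.58 with thresholds divided and multiplied by 1.5, -2.17 with score stages and 2.18 thinned to 2000 UMIs. The count of ratios past 2-fold, 4, was 1 with score stages (which give no primed or pre-neutrophil stage; the 1 is none of the 4 but Cebpe in stem cells, at 1.06, a pair with too few UMIs under the gates), 2 with a minimum of 500 UMIs, 14 at 1.5-fold and 1 without the deepest cells, where Gfi1 (-2.48) and Irf8 (1.14) fell under 100 UMIs. At 1.5-fold, 6.52% to 22.4% of all genes passed, by stage. The pairs past 2-fold also changed. With thresholds divided by 1.5, Irf8 passed in the stem gate (-1.29) and neutrophil progenitors (-1.33). Cebpe in primed progenitors (0.94) and Cebpb in pre-neutrophils (-0.97) did not pass there. With thresholds multiplied by 1.5, Irf8 passed in primed progenitors (-1.06), and without doublet removal in Fcnb-low cells (-1.11). In the stem gate, Cebpa (-1.19) and Irf8 (1.21) passed in hashtag 1 and Irf8 (-1.55) in hashtag 2. With the same stage weights, the ratios over all cells were -0.48 for Cebpb, 0.092 for Cebpd, 0.090 for Cebpe, -0.046 for Spi1, -0.19 for Irf8, -0.037 for Klf4 and -0.033 for Runx1. Of 72 gene and stage pairs, the number whose shares of cells had separate intervals was 12 thinned and 17 unthinned. This was not counted over all genes, so these numbers have no background beside them and are not read as a result about the 9 genes. Except where named, causes were not tested. The single library per group, the gates set on these data, and few cells in the stem (91) and pre-neutrophil (102) gates limit what these values can show.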
